A study of Mus musculus with 23 samples.

Results

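Antisense sites are the CTCF-RNA sites on a strand that carries no annotated gene, opposite a gene of the other strand or up to 2 kb upstream of its start. They were taken from the 6 lists of iCLIP2 sites by position and strand alone: a site counted when no GENCODE M21 gene of its own strand covered it, and a gene of the other strand did or had its start within reach. This gave 18563 sites at 13719 distinct positions, or 1.38% of the 1346716 sites on chromosomes 1 to 19, X and Y. Each site was assigned to the qualifying gene of the other strand with the nearest start.

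iCLIP2 maps the RNA bases that a protein touches. UV light links protein to RNA, the protein is pulled down, and reverse transcription stops at the linked base, so the site is the base before the 5′ end of the read. All 6 groups were E14 mouse embryonic stem cells (ESC) or neural precursor cells (NPC) made from them by 2 days of differentiation, and in all of them the cell's own CTCF was degraded through an mAID tag by 1 µM 5-Ph-IAA for 24 h. A Flag-Halo-tagged rescue CTCF was induced from the Tigre locus with 1 µg/mL doxycycline over the same time, and the anti-Flag antibody pulled down this copy from nuclei. The WT groups carried full-length CTCF, the ΔZF1 groups CTCF without its first zinc finger, and both were crosslinked with 400 mJ/cm2 at 254 nm. The noXL groups were the WT rescue line without UV, so no noXL list exists for ΔZF1. Each rescue line was 1 clone. The libraries of a group, 4 each and 3 for NPC WT, were merged before sites were called, so each group has 1 list, no spread between replicates can be given and no test was run. Intervals are 95% Wilson intervals, cover counting error only, and treat sites as independent although neighbouring sites share RNAs.

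The lists held 107227 to 451137 sites. The read depth behind them is unknown, and the deposited score, which measures the strength of a site, is not scaled to depth. Sense sites in 5 markers of naive stem cells numbered 1118, 542 and 290 in the ESC lists for WT, ΔZF1 and noXL, against 30, 17 and 17 in the NPC lists. Nes had 28, 32 and 14 sense sites in the NPC lists and at most 2 in the ESC lists, while Hes5 and Otx2 had none and Sox1 and Pax6 at most 2 in any list, so the NPC label is borne out by the lower stem cell markers and by Nes alone. All 5 markers of other germ layers were at 0 in every list.

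Many active promoters are transcribed both ways. The RNA made backwards from a promoter, called an upstream antisense or PROMPT transcript, is short, poorly spliced and quickly degraded by the nuclear exosome, and most such RNAs have no entry in a gene catalogue. Antisense RNA over a gene body can also come from a separate gene or an enhancer, from a neighbouring gene read through past its end, or from small RNA genes such as tRNA and snRNA genes that sit in introns or beside promoters.

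The sequences below show what lay under the strongest and most repeatable antisense sites. They are 41 nt of the RNA, read 5′ to 3′ from the GRCm38 (mm10) genome, with the site in capitals. The first set holds 6 positions upstream of a gene, 1 for each gene, that were found at the same nucleotide in all 4 UV lists and lay within 5 nt of no noXL site. They rank highest by their lowest score percentile over these lists.
Gm26802, chr7:19301259-19301299, plus strand: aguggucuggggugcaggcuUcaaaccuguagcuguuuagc
B4gat1, chr19:5038317-5038357, minus strand: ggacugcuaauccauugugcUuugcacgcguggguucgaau
Plekhg2, chr7:28373005-28373045, plus strand: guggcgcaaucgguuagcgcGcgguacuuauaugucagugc
Knl1, chr2:119046762-119046802, minus strand: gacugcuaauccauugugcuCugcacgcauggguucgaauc
Mir8105, chr10:128458494-128458534, minus strand: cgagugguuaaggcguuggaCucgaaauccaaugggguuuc
Ilf2, chr3:90475855-90475895, minus strand: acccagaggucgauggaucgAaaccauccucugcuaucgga
All except the site by Gm26802 lay inside a tRNA gene that RefSeq lists on the site's own strand and GENCODE does not: n-TSgct6 by B4gat1, n-TIaat16 by Plekhg2, n-TSgct7 by Knl1, n-TScga2 by Mir8105 and n-TMcat11 by Ilf2. The names are RefSeq's, and the letter after T stands for the amino acid. The site by Gm26802 lay in no gene of its own strand in either catalogue, so its RNA is not identified here and the site is in none of the tRNA counts given further on. It scored 404 with WT and 393 with ΔZF1 in ESC, and 328 and 170 in NPC. The site by B4gat1 scored 188 and 137 in ESC and 160 and 184 in NPC, against a median of 2.37 to 3.77 for sense sites of these lists.

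The second set shows the strongest positions shared at the same nucleotide by all 6 lists, noXL included, that lay 1 nt before the start of a gene on their own strand. They are named by the gene of the other strand.
Eapp, chr12:54696761-54696801, plus strand: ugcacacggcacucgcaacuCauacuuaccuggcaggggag
Poldip3, chr15:83149623-83149663, plus strand: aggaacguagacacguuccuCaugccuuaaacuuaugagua
Hhat, chr1:192745550-192745590, plus strand: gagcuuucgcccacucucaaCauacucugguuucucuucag
The base after the capital is the first base of an snRNA gene: Gm22513 by Eapp, Rnu12 by Poldip3 and Gm22265 inside Hhat. snRNAs are the RNA parts of the spliceosome. The score by Eapp was 708, the highest value any list holds, in every list except NPC WT, where it was 593. A cDNA that runs to the 5′ end of an RNA is placed at exactly this base, 1 nt before the RNA.

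Antisense sites were 1.39% (1.36 to 1.43) of all sites in ESC WT, with 6286 of 451137. The share was 1.73% (1.68 to 1.79) in ESC ΔZF1, with 4018 sites, and 1.50% (1.44 to 1.56) in ESC noXL, with 2388. In NPC it was 1.11% (1.07 to 1.15) for WT, with 2651 sites, 0.979% (0.932 to 1.03) for ΔZF1, with 1552, and 1.56% (1.48 to 1.63) for noXL, with 1668. The ΔZF1 share was thus above that of WT in ESC and below it in NPC, with intervals that do not overlap in either cell type. The NPC difference did not hold under 3 other settings: ΔZF1 over WT was 0.884 as given, but 1.01 with runs of sites within 8 nt merged in the whole lists, 1.06 without sites before own-strand starts and 1.03 without sites in own-strand RefSeq genes, each with overlapping intervals of the shares. WT held 1.56 (1.50 to 1.63) times as many antisense sites as ΔZF1 in ESC, against 1.95 times for all sites, and 1.71 (1.60 to 1.82) times in NPC, against 1.51 for all sites. Against noXL the WT count was 2.63 (2.51 to 2.76) times as high in ESC and 1.59 (1.49 to 1.69) times in NPC, where the ratio over all sites was 2.84 and 2.23. The ratio of WT to noXL was thus lower for antisense sites than for the lists as a whole in both cell types.

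**Figure D1:**
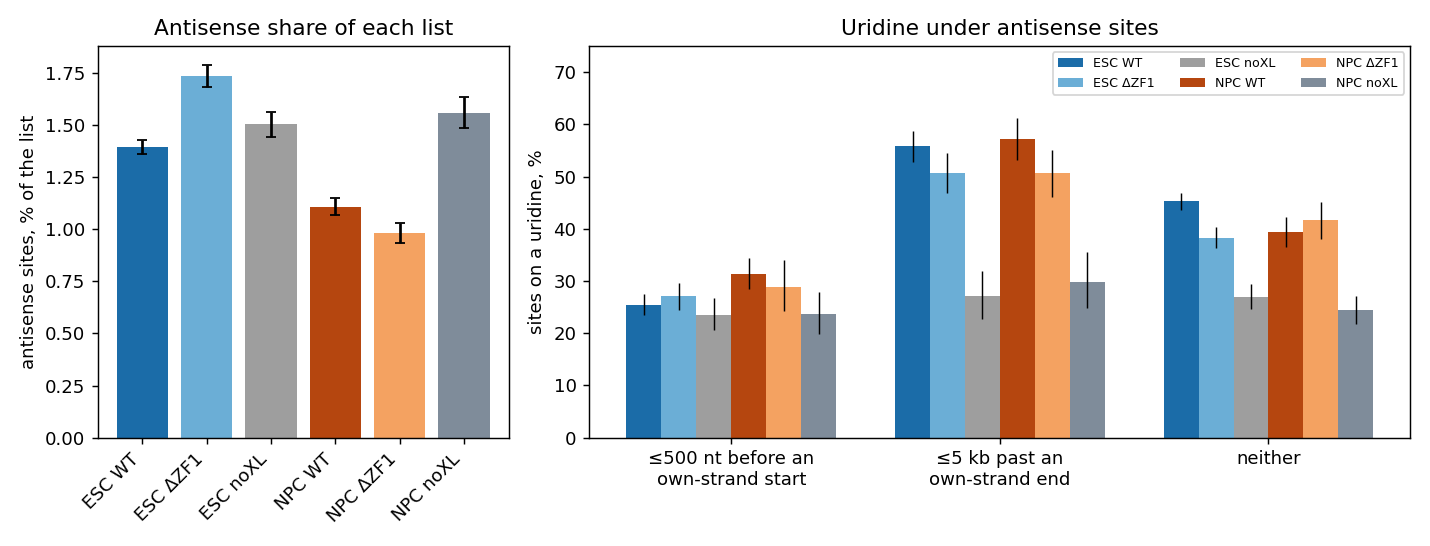
Left, antisense sites as a percentage of all sites of each list. Right, the percentage of antisense sites on a uridine, divided by what lies on the site's own strand. Error bars are 95% Wilson intervals. The ΔZF1 share stands above WT in ESC (1.73% and 1.39%) and below it in NPC (0.979% and 1.11%), a difference that in NPC did not hold under 3 other settings, and uridine under sites past an own-strand gene end is 50.6% to 57.2% in the UV lists and 27.1% and 29.9% without UV.

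UV at this wavelength links uridine best, so crosslinked sites tend to lie on uridine, although the share of uridine also follows the base composition of the RNA. Of the antisense sites, 41.5% (40.3 to 42.7) lay on a uridine in ESC WT, 37.1% (35.6 to 38.6) in ESC ΔZF1 and 25.9% without UV. In NPC the share was 40.4% (38.6 to 42.3) for WT, 41.6% for ΔZF1 and 25.1% for noXL. Antisense sites were poorer in uridine than the sense sites of the same list, by 19.1 (17.9 to 20.3) percentage points in ESC WT and by 24.2 (22.3 to 26.0) in NPC WT, while the gap was 2.42 (0.608 to 4.15) and 2.81 (0.655 to 4.85) points in the noXL lists. On uridines alone WT exceeded noXL 4.22-fold (3.87 to 4.61) in ESC and 2.56-fold (2.29 to 2.86) in NPC, and on the other bases 2.08-fold and 1.26-fold. The difference in uridine between WT and ΔZF1 was 4.44 (2.5 to 6.36) points in ESC and -1.19 (-4.27 to 1.89) points in NPC, the latter with an interval that spans 0.

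Antisense sites scored higher than sense sites. The median score was 4.94 in ESC WT against 2.53 for sense sites, 5.83 against 2.67 in ESC ΔZF1, 4.93 against 2.37 in NPC WT and 6.58 against 3.77 in NPC ΔZF1. The noXL lists had the same order, with 6.90 against 4.15 in ESC and 14.2 against 3.63 in NPC, and 52.3% of NPC noXL antisense sites ranked in the top 10% of that list's scores. Sites outside genes of both strands, the kind most like them, also scored above sense sites in every list, with medians of 4.48, 4.90 and 6.25 in the ESC lists for WT, ΔZF1 and noXL and 4.63, 5.89 and 8.71 in the NPC lists. High score and high uridine did not go together here: with the ESC WT list cut into 4 equal bins of score, the top bin had 37.4% uridine among antisense sites and the lowest 44.3%, while among sense sites these bins had 62.9% and 57.0%. Antisense sites also lay more often on repeat-masked bases, 32.3% against 16.6% of sense sites in ESC WT, but less often than the sites outside genes of both strands, with 34.5%, and that order held in all 6 lists. They more often had a site without UV close by than sense sites did. In ESC WT 24.8% of antisense sites lay within 5 nt of an ESC noXL site against 7.67% of sense sites, and in NPC WT 24.1% against 5.64%. Sites facing a site of the same list on the other strand within 10 nt made up only 0.224% to 0.544% of the antisense sites.

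Relative to the start of the gene on the other strand, antisense sites piled up just upstream. In ESC WT 1901 sites (30.2%) were upstream, 669 (10.6%) lay in the first 1 kb of the gene and 3716 (59.1%) further in. The count per 100 nt was 370 in the last 100 nt before the start and 379 in the 100 nt before that, against 104 in the first 100 nt inside. ESC ΔZF1 had 233, 229 and 68 in the same windows, NPC WT 178, 179 and 50, and NPC noXL 71, 79 and 39. The peak upstream of the start thus stood in every list, with or without UV. Stretches covered by a gene of the own strand are left out by definition, also where such a gene begins a short way upstream. The counts were not scaled to the length left, so part of the fall with distance may come from the definition. Of the other ESC lists ΔZF1 had an upstream share of 31.4% and noXL of 28.6%. The NPC lists had 39.3% (37.5 to 41.2) for WT, 32.0% for ΔZF1 and, without UV, 25.0%. Sites went on past the reach of 2 kb: in ESC WT 195 lay in its farthest 500 nt and 192 in the next 500 nt, which the definition leaves out. The same windows held 147 and 103 in ESC ΔZF1, 119 and 84 in NPC WT and 61 and 48 in NPC ΔZF1.

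**Figure D2:**
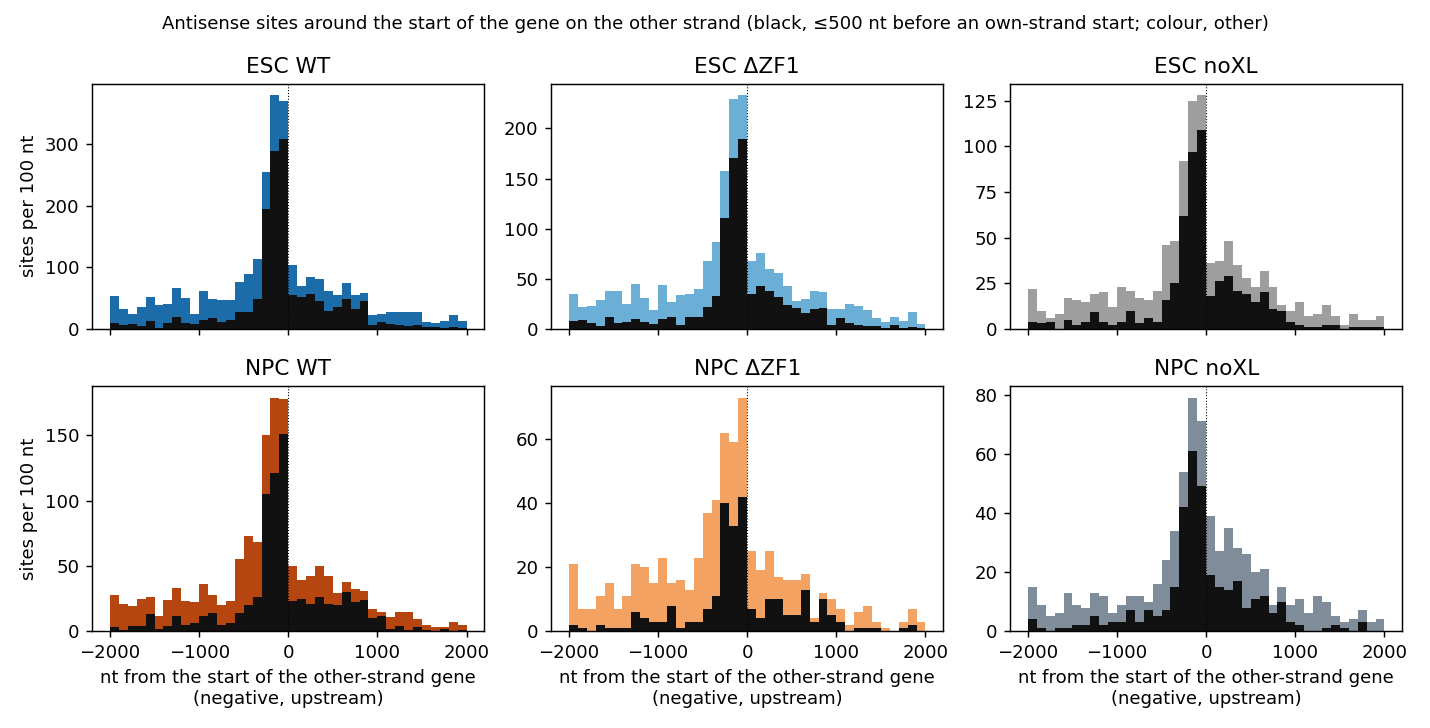
Antisense sites per 100 nt around the start of the gene on the other strand, by list; negative positions are upstream of that start. Black, sites up to 500 nt before the start of a gene on their own strand; colour, all other antisense sites. The peak just upstream, 370 sites in the last 100 nt in ESC WT, is mostly black. Stretches covered by a gene of the own strand are left out by definition, and the counts are not scaled to the length left.

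Many of these sites lay just before a gene of their own strand. Of the 1901 upstream sites in ESC WT, 1043 (54.9%) lay at most 500 nt before the start of an annotated gene on their own strand, a limit set after the sites had been seen. In 556 of these 1043 both genes were protein coding, in 270 pairs, with a median of 135.5 nt between the 2 starts and the site a median of 13 nt before its own-strand start. The same share of upstream sites was 50.6% to 54.7% in the other lists except NPC ΔZF1, where it was 34.6% (30.6 to 38.9). These sites were antisense to 1 gene and, at the same time, up to 500 nt upstream of a gene on their own strand.

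Counted back from the own-strand start, sites were most frequent at the first 2 positions. Bases from the start onward belong to the own-strand gene, so the definition leaves their sites out. Whether the counts rise further inside the gene was not looked at. In ESC WT 154 sites lay 1 nt and 273 lay 2 nt before such a start, against 78 at 3 nt, and together the first 2 positions held 6.79% of all antisense sites. ΔZF1 had 7.12% and noXL 8.33% there in ESC, and the NPC shares were 9.32% for WT, 6.51% for ΔZF1 and, without UV, 6.24%. The base under them was most often a cytidine, 40.0% (35.5 to 44.8) in ESC WT and 43.3% (37.3 to 49.6) in NPC WT, and a uridine in only 22.7% and 26.7%, and their median score was 11.2 and 9.96. In ESC WT 343 of the 427 preceded a protein-coding gene, with a median score of 9.37, and 58 preceded a small RNA gene, with 35.6. A noXL site lay within 5 nt of 86.2% of the latter and of 47.2% of the former.

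**Figure D3:**
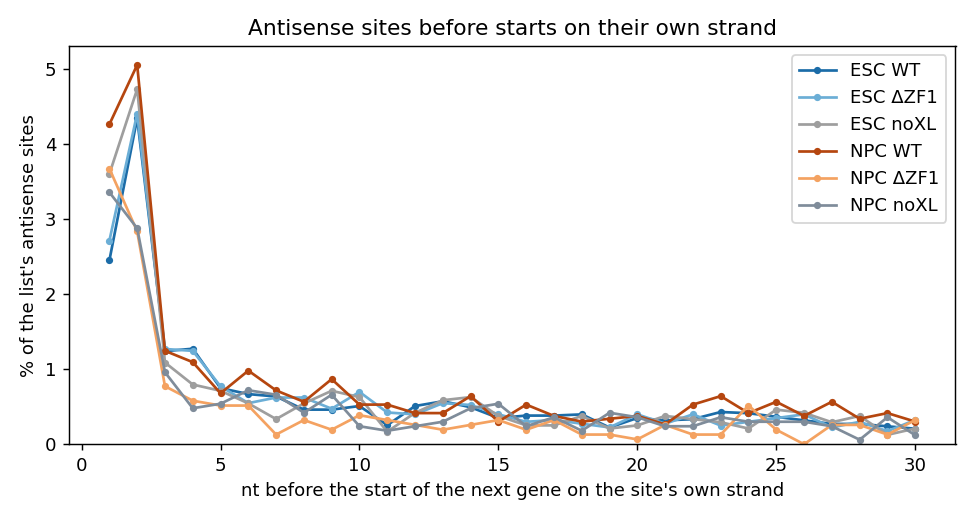
Antisense sites by their distance to the next gene start on their own strand, as a percentage of the antisense sites of each list (lines, 1 per list). Counts in all 6 lists are highest at 1 and 2 nt, where ESC WT has 154 and 273 sites, and lower at 3 nt. Bases from the start onward are left out by definition, so the counts stop at that edge.

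Of 503 own-strand genes with such a site in any list, 41 had it in all 6, among them 23 of 45 snRNA genes but 13 of 418 protein-coding genes. Srsf2, which encodes a splicing factor and lies head to head with Mfsd11, was 1 of the 13, with top scores of 296, 202 and 254 for WT, ΔZF1 and noXL in ESC and of 118, 61.1 and 114 in NPC. Hist1h1a, a linker histone gene of the replication-dependent cluster, whose RNAs have no poly(A) tail, lies opposite Hist1h3a and scored 186, 152 and 105 in the ESC lists and 98.7, 56.9 and 55.7 in the NPC lists. H1f0, a linker histone gene outside that cluster, scored 38.6, 26.4, 70.8, 64.7, 47.6 and 56.0 in the same order. Srsf2, Hist1h1a and H1f0 were chosen from genes with the site in all 6 lists, so its presence without UV follows from that choice. At H1f0 the ESC noXL score was the highest of the 6.

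WT and ΔZF1 lay further apart at these starts in NPC than in ESC. At 1 or 2 nt lay 9.32% of the NPC WT antisense sites, against 6.51% in ΔZF1 and 6.24% in noXL. WT held 2.76 (2.43 to 3.12) times as many sites before an own-strand start as ΔZF1 in NPC, 934 against 339, but 1.56 (1.45 to 1.68) times in ESC, 1770 against 1132. At 1 or 2 nt before protein-coding genes the NPC counts were 192 in WT and 52 in ΔZF1, a ratio of 3.69 (2.72 to 5.01), against 343 and 213 in ESC, a ratio of 1.61 (1.36 to 1.91). Before small RNA genes the counts were close, with 46 and 43 sites in NPC, a ratio of 1.07 (0.708 to 1.62), and 58 and 57 in ESC. Past the end of own-strand genes the NPC ratio was 1.21 (1.07 to 1.36). NPC noXL, from the WT line, had 59 sites at 1 or 2 nt before protein-coding genes, against the 52 of NPC ΔZF1. Whether the lists for the 2 cell types differ here beyond replicate error was not tested, and the clone and the missing zinc finger cannot be told apart.

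tRNA genes on the own strand were looked at next. RefSeq lists 403 tRNA genes on these chromosomes, and antisense sites fell in 54 of them with WT and 49 with ΔZF1 in ESC, and in 47 and 45 in NPC. Without UV they fell in 20 in ESC and 12 in NPC. Only tRNA genes within reach of a gene of the other strand and outside own-strand GENCODE genes could hold such a site. How many of the 403 these are was not counted. The sites numbered 205, 118, 136 and 70 in the UV lists and 24 and 14 without UV. WT exceeded noXL 8.54-fold (5.61 to 13) in ESC and 9.71-fold (5.64 to 16.7) in NPC, where all antisense sites together gave 2.63 and 1.59. tRNA genes came to notice through the leading sequences, which were chosen for high scores in the 4 UV lists and for having no noXL site within 5 nt, so high scores with UV and a high ratio to noXL are partly built in, and both are given as a description. The median score in tRNA genes was 39.9 for WT and 35.6 for ΔZF1 in ESC, 31.4 and 30.0 in NPC, and 8.72 and 19.3 without UV.

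Between bases 21 and 50 of the tRNA gene, which hold the anticodon, lay 48.3% of the sites with WT and 50% with ΔZF1 in ESC, 55.9% and 40.0% in NPC, and 41.7% and 42.9% without UV. A uridine lay under 36.6% (30.3 to 43.4) of them with WT and 23.7% with ΔZF1 in ESC, and under 30.1% and 17.1% in NPC. WT held 1.74 (1.39 to 2.18) times as many tRNA sites as ΔZF1 in ESC and 1.94 (1.46 to 2.59) times in NPC, within counting error of the antisense sites as a whole. The most sites fell in n-TTcgt5, with 7, 4 and 2 in the ESC lists and 6, 2 and 0 in NPC, and in n-TRcct2, with 6, 6 and 1 and 5, 2 and 1. tRNA genes have near-identical copies, so which copy a read came from is uncertain.

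Other RefSeq genes on the own strand covered more of the sites. Protein-coding RefSeq genes held 20.6% of antisense sites with WT in ESC and 23.5% in NPC. RefSeq lncRNA genes held 2.90% and 5.85%. No RefSeq gene of the own strand lay over 62.2% (NPC WT) to 79.9% (NPC noXL) of the antisense sites. Past the annotated end of an own-strand gene, up to 5 kb, lay 17.5% of antisense sites with WT and 16% with ΔZF1 in ESC, and 22.0% and 31.1% in NPC. Among the sites before an own-strand start, past an own-strand end and elsewhere, those past an end had the most uridine, 55.8% (52.9 to 58.7) in ESC WT and 57.2% (53.2 to 61.2) in NPC WT, and the lowest median scores, 3.41 and 2.54. Sites before an own-strand start had 25.5% (23.5 to 27.6) in ESC WT, 2.01 (-1.75 to 5.59) points above ESC noXL, an interval that spans 0. In NPC WT they had 31.3% (28.4 to 34.3), 7.67 (2.53 to 12.5) points above NPC noXL, an interval that does not span 0. Base composition moved with these shares: G and C made up 65.6% of the 41 nt around sites before an own-strand start in ESC WT, 45.8% past an own-strand end and 47.7% elsewhere, and the part of composition in the uridine shares was not tested.

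Some upstream sites had no annotated start or end of an own-strand gene nearby and no RefSeq gene over them. By position alone these come nearest to upstream antisense transcripts. In ESC there were 441 with WT, 320 with ΔZF1 and 191 without UV, and in NPC 226, 145 and 117. They made up 7.01% to 9.34% of the antisense sites of a list. The median distance upstream of the start was 616 nt in ESC WT and 498 nt in NPC WT. WT exceeded noXL 2.31-fold (1.95 to 2.74) in ESC and 1.93-fold (1.55 to 2.41) in NPC, and ΔZF1 1.38-fold (1.19 to 1.59) and 1.56-fold (1.27 to 1.92). Uridine lay under 38.8% (34.3 to 43.4) in ESC WT and 34.0% (27.7 to 41) in ESC noXL, and under 42.0% (35.8 to 48.6) in NPC WT and 19.7% (13.5 to 27.8) in NPC noXL. The WT and noXL intervals overlap in ESC and do not in NPC. A noXL site lay within 5 nt of 34.5% of these sites in ESC WT, against 24.8% of all its antisense sites. In NPC WT the shares were 24.8% and 24.1%. Protein-coding genes held 66.4% of them in ESC WT and 75.2% in NPC WT. The unidentified site by Gm26802 is among them. Sites by Hrh2, present in all 6 lists, lay 1943 to 1947 nt before its start, with 0 on a uridine.

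Among the genes with most such sites was Tomm5, a subunit of the mitochondrial import channel, with 18, 12 and 12 in ESC WT, ΔZF1 and noXL and 9, 3 and 1 in NPC, between 29 and 1839 nt before its start. Hexim2, an inhibitor of the transcription elongation kinase P-TEFb, had 15, 3, 3, 5, 3 and 4 in the same order, and Kpnb1, the nuclear import receptor importin beta, 6, 6, 2, 10, 3 and 3. Tbc1d22a had 9, 5, 0, 3, 8 and 0. Katnal2, where antisense sites form a block described below, had 17, 15, 8, 0, 0 and 0. The promoters of Tomm5 and Tbc1d22a, as RefSeq's GRCm38.p6 table gives them on the gene's strand, show how these sites spread: capitals mark bases opposite an antisense site of any list, and a capital A is a uridine in the antisense RNA.
Tomm5, chr4:45108064-45108363, minus strand: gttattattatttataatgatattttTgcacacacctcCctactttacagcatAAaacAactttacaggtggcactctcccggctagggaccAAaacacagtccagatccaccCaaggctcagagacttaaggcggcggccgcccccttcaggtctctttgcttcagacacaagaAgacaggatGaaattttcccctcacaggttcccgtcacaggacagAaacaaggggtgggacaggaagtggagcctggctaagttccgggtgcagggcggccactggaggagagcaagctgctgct
Tbc1d22a, chr15:86214209-86214508, plus strand: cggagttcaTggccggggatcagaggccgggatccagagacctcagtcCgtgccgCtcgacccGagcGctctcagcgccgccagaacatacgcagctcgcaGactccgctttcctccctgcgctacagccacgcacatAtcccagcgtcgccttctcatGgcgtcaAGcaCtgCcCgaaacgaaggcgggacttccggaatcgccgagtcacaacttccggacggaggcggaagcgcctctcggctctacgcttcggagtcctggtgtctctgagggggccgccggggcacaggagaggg
The Tomm5 promoter held 11 positions, 7 of them a uridine in the antisense RNA, and the Tbc1d22a promoter 13 positions, 2 of them a uridine.

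Inside genes, antisense sites formed blocks. The 10 genes with most sites held 14.7%, 12.1% and 12.9% of the antisense sites in the ESC lists for WT, ΔZF1 and noXL and 6.83%, 8.96% and 4.74% in the NPC lists, while 28.6% of the 1569 genes in ESC WT and 73.6% of the 1195 in NPC noXL had a single site. Zmynd8, a chromatin reader, led all 3 ESC lists with 120 sites in WT, 94 in ΔZF1 and 49 in noXL, and had 0 in each NPC list. They filled 1 stretch, chr2:165810240-165823980, on the plus strand, with WT and ΔZF1 sites in every 1 kb from 75 to 88 kb inside the gene and no annotated gene of their own strand within 40825 nt downstream of the middle. The sense sites of Zmynd8 were 97, 68 and 58 in ESC and 113, 128 and 78 in NPC, so the gene's own RNA was seen in both cell types and the antisense block in ESC. Uridine lay under 48.3% (39.6 to 57.2) of the block's sites in WT and 20.4% in noXL.

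Other blocks had the same cell type. Slc25a12, which encodes a mitochondrial aspartate-glutamate carrier, had 116, 48 and 38 antisense sites in ESC WT, ΔZF1 and noXL and 1, 2 and 2 in NPC. Cntnap2, a cell adhesion gene of neurons, had 109, 60 and 24 in ESC and 3, 2 and 2 in NPC, and Katnal2, a microtubule-severing protein, 116, 64 and 42 in ESC and 0 in NPC. Uridine in ESC WT was 69.0% (60.1 to 76.7) at Slc25a12 and 58.7% (49.3 to 67.5) at Cntnap2, where sense sites of the list had 60.6%, and 23.7% and 25.0% in ESC noXL. At Slc25a12 and Cntnap2 the base under the sites thus differed with UV, while blocks of sites were present in both.

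**Figure D4:**
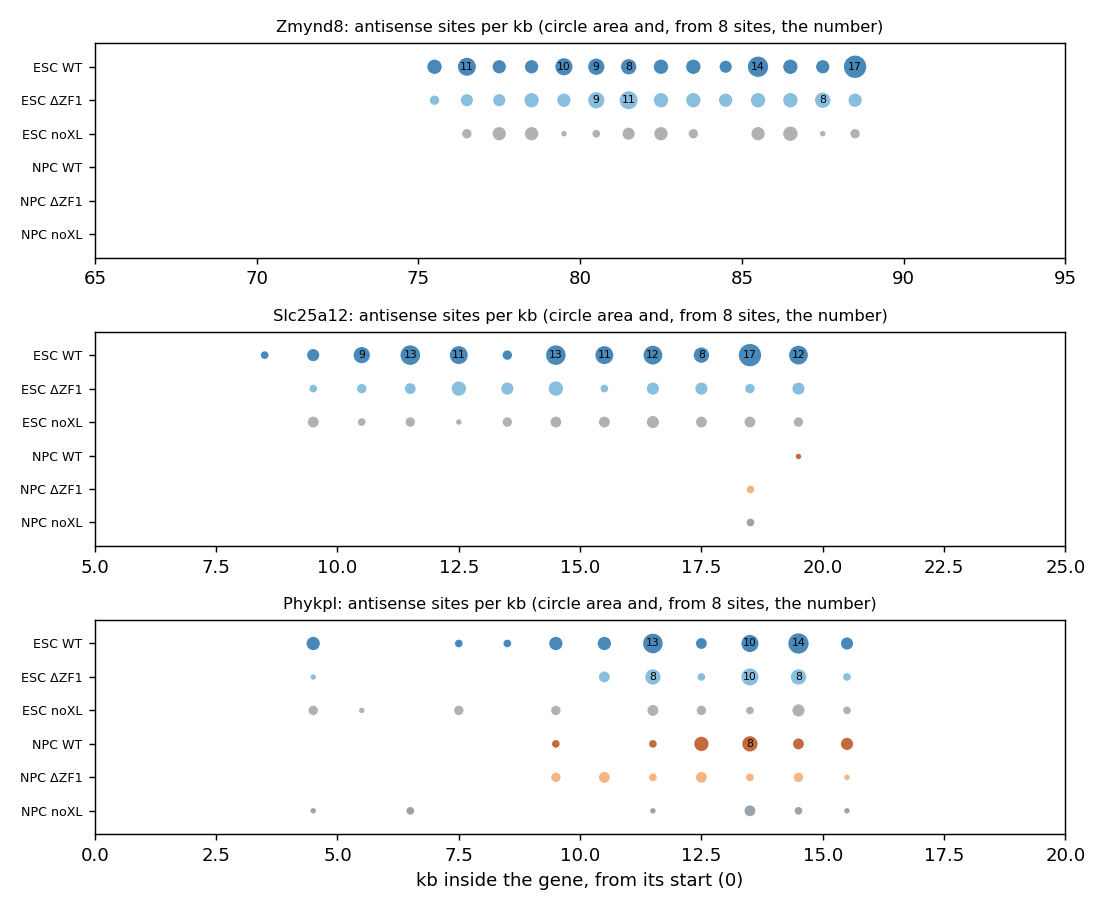
Antisense sites per 1 kb along 3 genes, by list; the x axis is the distance from the gene's start and the circle area the number of sites, printed from 8 sites. Zmynd8 and Slc25a12 have blocks in the 3 ESC lists and 0 to 2 sites in each NPC list, and Phykpl has sites in all 6.

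Several blocks seen in both cell types lay beside a gene of their own strand. Phykpl, which encodes a lyase of hydroxylysine breakdown, had 68, 35 and 26 antisense sites in the ESC lists and 28, 19 and 11 in NPC, and led NPC WT. Of its 187 sites 148 lay up to 5 kb past the end of Hnrnpab, which encodes an abundant RNA-binding protein and ends 2749 nt before the middle of the block. Slc16a4, a monocarboxylate transporter, had 69, 39, 7, 17, 16 and 1, of which 93.3% lay in the RefSeq gene Rbm15 on the same strand. Txlng, with 5, 4 and 0 sites in ESC and 11, 24 and 2 in NPC, had 35 of its 46 within 5 kb past the end of Rbbp7. Gsdme, with 9 to 11 sites in each list except ESC noXL (4), had 54 of its 55 past the end of Mpp6, and Copg2 (1, 1, 6, 7, 12 and 0) had 19 of 27 past Mest. Snx9, with 4, 3, 0, 15, 15 and 6, and Atrnl1, with 44, 23, 7, 6, 8 and 9, had none of theirs past such an end.

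Some blocks fell on ribosomal and small RNA loci. Gm26917, listed as a lincRNA, had 39, 15 and 17 antisense sites in ESC and 21, 3 and 8 in NPC, all of them past the end of CT010467.1, which GENCODE lists as rRNA, and Gm42418 beside it had 35, 12, 13, 20, 6 and 2. Uridine lay under 2.56% (0.454 to 13.2) of the Gm26917 sites in ESC WT and 5.71% (1.58 to 18.6) at Gm42418, below the 41.5% of all antisense sites of that list. In ESC noXL the shares were 29.4% (13.3 to 53.1) and 15.4% (4.33 to 42.2), with intervals that hold that list's 25.9%. Snhg7os had 28, 13, 9, 20, 6 and 6, with 85.4% inside RefSeq Snhg7, a host gene of small nucleolar RNAs. Gm25252 and Gm25750 are miRNA entries of a miRNA cluster on chromosome 12. In ESC WT, ΔZF1 and noXL Gm25252 had 0, 2 and 0 sites, and in NPC 12, 4 and 9. Gm25750 had 0, 3, 0, 12, 12 and 2 in the same order. Aloxe3, an epidermal lipoxygenase gene, had 18 sites in ESC WT, all upstream, and over the lists 61.1% of its sites lay in RefSeq genes of their own strand. Triml2 (22, 13 and 7 in ESC, 0 in NPC) and Gm6284 (83, 43 and 30, and 0) lay wholly inside RefSeq Triml1. Ankrd42 had 11 upstream sites in NPC WT, inside the RefSeq gene Gm26944.

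Gene by gene, the ratio between 2 lists was scaled to the antisense total of each list and computed for genes with at least 20 antisense sites in both together, as log2 of sites plus 1. A gene could pass this minimum through the list with more sites alone, which favours ratios toward that list, WT against ΔZF1 and noXL and ESC WT against NPC WT, so nothing is read from the share of genes on that side, and the share among sense sites is given beside it only as the background. The ratio of ΔZF1 over WT in ESC was at or above 1 in 2 of 50 genes, against 6.84% of 6518 genes counted on their sense sites in the same way, and at or below -1 in 6 of 50, beside 5.45%. Both rest on few genes. The lowest was Gabrp, a GABA receptor subunit, with 88 sites in WT and 0 in ΔZF1, a scaled log2 ratio of at most -3.87. Grb10 had 34 and 0, at most -2.50, and Trpc5, a cation channel, 59 and 1, at -4.26 (-7.76 to -2.72). Where a list had 0 sites, the limit is the end of the interval. Gabrp and Grb10 had 37 and 11 sites in ESC noXL, and Glt1d1 had 28 in ESC WT, 16 in ESC noXL and 0 in ESC ΔZF1. WT and noXL came from 1 clone and ΔZF1 from another, and clone and mutant cannot be told apart.

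Gabrp and Grb10 lie on chromosome 11, where ΔZF1 had a lower total of sites relative to WT than elsewhere. Not every gene there followed, and Kpnb1 had 9 sites with WT and 7 with ΔZF1 in ESC. WT over ΔZF1 was 2.46 (2.16 to 2.79) for antisense sites of chromosome 11 in ESC against 1.48 (1.42 to 1.55) elsewhere, and 2.94 against 1.88 for sense sites. In NPC it was 3.17 (2.56 to 3.92) against 1.59 (1.49 to 1.70) for antisense sites and 2.32 against 1.44 for sense sites. The deficit was thus shared by sense and antisense sites in both cell types. The highest ratios in ESC were at Zfp202, a zinc finger gene, with 9 sites in WT and 43 in ΔZF1, a scaled log2 ratio of 2.78 (1.89 to 3.92), then Gm37092 with 8 and 17, at 1.65 (0.55 to 2.91), and Sntg1 with 10 and 11, at 0.77 (-0.42 to 1.98). Zfp202 had 30.2% (18.6 to 45.1) uridine in ΔZF1, an interval that holds the list's 37.1%.

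**Figure D5:**
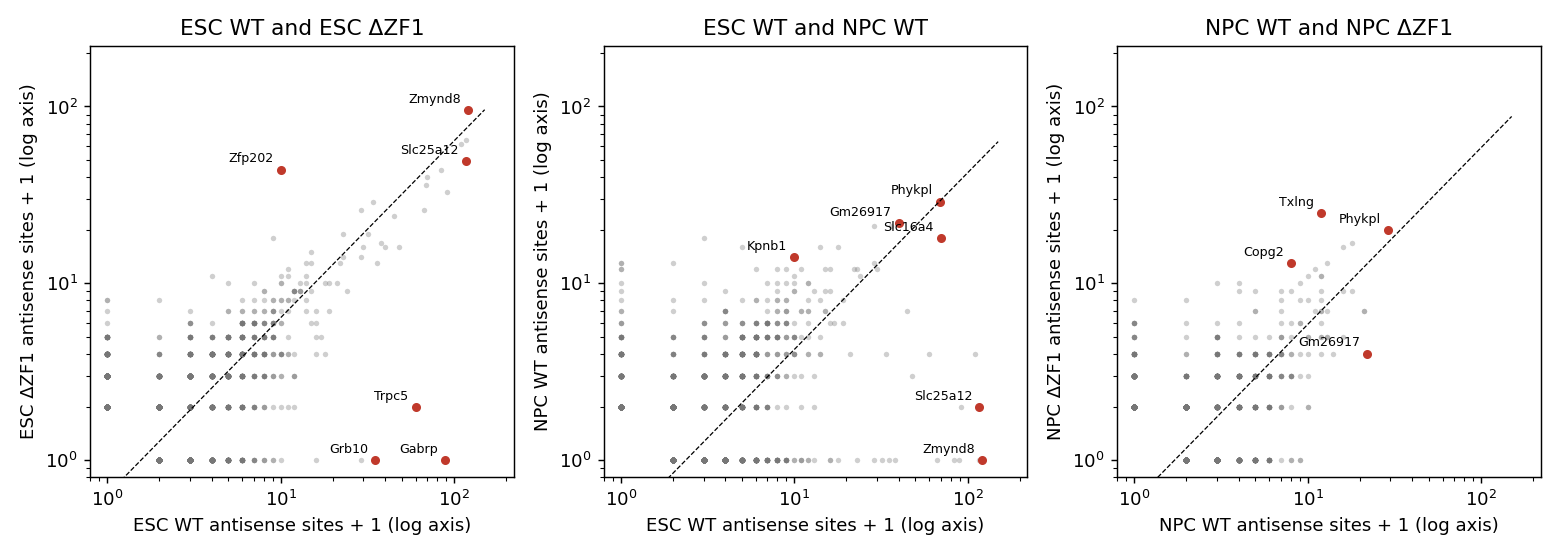
Antisense sites plus 1 per gene in pairs of lists, both axes logarithmic; each point is a gene, red points are named, and the dashed line is the ratio of the lists' antisense totals. In the left panel Gabrp, Grb10 and Trpc5 lie far below the line and Zfp202 (9 and 43 sites) above it; in the middle panel Zmynd8 and Slc25a12 are in ESC WT with 0 and 1 sites in NPC WT.

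In NPC 1 of 13 genes had a ratio of ΔZF1 over WT at or above 1, against 5.76% of 5274 genes on sense sites, and 1 of 13 at or below -1, beside 7.36%. These were Txlng, with 11 and 24 sites, at 1.83 (0.89 to 2.91), and Gm26917, with 21 and 3, at -1.69 (-3.69 to -0.38). Next were Gsdme at 0.90 and Gm25750 at 0.77 on the high side, and Snhg7os and Gm42418, each with 20 and 6 sites, at -0.81 (-2.24 to 0.31) on the low side, all with intervals that span 0.

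For WT over noXL in ESC 8 of 34 genes were at or above 1, beside 8.12% on sense sites, and 1 was at or below -1, against 6.60%. The highest were 4930557F10Rik, with 1 site in noXL and 29 in WT, at 2.51 (0.93 to 6.0), Slc16a4, with 7 and 69, at 1.73 (0.81 to 3.00), and Trpc5, with 6 and 59, at 1.70 (0.72 to 3.08). At the other end Zc3h7a had 23 sites in ESC noXL and 0 in the 5 other lists, between 11143905 and 11144212 on chromosome 16, with a median score of 708, the highest value. Of these 23, 21 lay before the start of Gm23935, a miRNA gene. Gm20388 (14 and 22) and Glt1d1 (16 and 28) followed at -0.78 (-1.69 to 0.21) and -0.63 (-1.46 to 0.28). In NPC 1 of 8 genes was at or above 1, beside 10.5%, and 0 at or below -1, against 6.51%. This was Gm42418, with 2 and 20 sites, at 2.14 (0.71 to 4.60), followed by Snhg7os and Larp7, both at 0.92, while Gsdme, Gm25252 and Snx9 were lowest at -0.79, -0.29 and 0.52.

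NPC WT over ESC WT was at or above 1 in 4 of 46 genes, against 11.5% of 6730 genes on sense sites, and at or below -1 in 18, beside 10.4%. The low side held the ESC blocks: Zmynd8 with 120 and 0 sites, a scaled log2 ratio of at most -3.72, Katnal2 with 116 and 0, at most -3.67, and Gabrp. The highest were Kpnb1, with 9 and 13, at 1.73 (0.58 to 2.97), 1700064H15Rik, with 13 and 15, at 1.44 (0.40 to 2.5), and Fgfr2, with 10 and 11, at 1.37 (0.18 to 2.58). Part of the sites at 1700064H15Rik, 61.8% over the lists, lay in RefSeq genes of their own strand, the tRNA gene n-TYgta2 among them.

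Positions recurred between lists more often than for sense sites. Of ESC ΔZF1 antisense sites 50.1% (48.6 to 51.6) lay within 5 nt of an ESC WT site, against 24.2% of its sense sites, and 35.4% (33.1 to 37.9) of NPC ΔZF1 sites lay near NPC WT, against 13.1%. At the same nucleotide in all 4 UV lists stood 347 positions in 233 genes, and 155 stood in all 6 lists. Of the 347, uridine lay under 27.7% (23.2 to 32.6), and 102 were before an own-strand start. Leaving out those within 5 nt of a noXL site left 85, with 34.1% (24.9 to 44.7) uridine. Genes with at least 5 antisense sites in ESC ΔZF1 numbered 131, of which 88.5% also had 5 in ESC WT, where the 116 shared genes were 34.2% of 339. The most repeatable antisense positions were thus not those richest in uridine.

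Genes were also grouped by function. Of 20 pluripotency genes 3 (15.0%) had a site in ESC WT, 2 each in the other ESC lists and 0 in NPC. Of all 21938 protein-coding genes 4.75% had one with WT in ESC and 3.08% in NPC, 4.84% and 2.51% with ΔZF1, and 3.93% and 3.95% without UV. None of 20 formative and neural genes and none of 15 immediate early and Myc family genes had a site in any UV list or in ESC noXL, while 2 and 1 of them had one in NPC noXL. Of 12 cohesin and CTCF genes 2 (16.7%) had sites with WT in ESC and 1 in NPC, and 1 in each noXL list. Of 98 ribosomal protein genes 4 and 2 did, and 6 and 3 without UV, with Rpl23a at 8 sites in ESC WT, all 9 of its sites past the end of a gene of their own strand. Of 394 Zfp genes 12 and 9 had sites with WT in ESC and NPC, 15 and 8 with ΔZF1, and 20 and 14 without UV. The shares with WT and without UV were 3.05% and 5.08% in ESC and 2.28% and 3.55% in NPC. Among the Zfp genes were Zfp462 with 5, 1 and 2 in the ESC lists for WT, ΔZF1 and noXL and 4, 0 and 2 in NPC, and Zfp804b with 6 in ESC WT and 0 in the others. Zfp746 had 7, 3, 10, 1, 0 and 0 in the same order and Zfp574 had 1, 0, 6, 6, 4 and 6, so at Zfp746 the ESC noXL count stood above that of WT and at Zfp574 the NPC counts of WT and noXL were equal. Of 18 genes for RNA surveillance, which degrades upstream antisense RNA, 2 (11.1%) and 3 (16.7%) had sites with WT, and 1 and 0 without UV, with 5 in ESC WT at Rbm7, all before a start on their own strand.

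Histone genes had the highest share of these groups in ESC WT. Of 66 replication-dependent histone genes 20 (30.3%) had a site with WT and 19 each with ΔZF1 and noXL in ESC, and 18, 11 and 15 in NPC. The sites numbered 79, 46, 33, 59, 13 and 19, all upstream except 1 in ESC noXL, and 74 of the 79 in ESC WT lay before the start of another gene on their own strand. Hist1h2ae had 7, 4, 2, 4, 0 and 1, Hist1h2ag 5, 6, 2, 4, 2 and 2, and Hist1h1d 5, 3, 2, 5, 0 and 0. Hist1h2bl, Hist1h2ai, Hist1h2bp, Hist1h2ad and Hist1h2ba had 5 each in ESC WT, and Hist1h2ah 5 in NPC WT. NPC WT had 59 such sites against 13 in NPC ΔZF1, and ESC WT 79 against 46. Histone genes are near copies of each other, so the reads behind these counts may be split among them.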

How the data were processed

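The authors demultiplexed and trimmed the reads (Flexbar), mapped them to mm10 (STAR), collapsed PCR duplicates by molecular barcode (UMI-tools), pooled the libraries of a group and called sites (PureCLIP) (versions: not given in the sources used here). The deposited files give each site's position, strand and the score that the authors' caller gave it, not scaled to depth. Merging means that replicate error cannot be seen. A deeper list may hold more weak sites, which was not tested.

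Positions on the autosomes, X and Y were set against GENCODE M21 genes, with RefSeq genes (GRCm38.p6), and with the genome for the base under the site (Python 3.11.15, pandas 2.3.3, pysam 0.24.0). The members, gene lists and comparisons were chosen with earlier results of these data known, and the division at 500 nt before an own-strand start, the RefSeq genes and the tRNA genes were chosen after seeing the sites. Shares have 95% Wilson intervals, which treat sites as independent. Genes named were the 5 with most antisense sites per list, the 5 with most upstream sites per WT list, in each comparison the 3 genes at either end of the scaled ratios, group members with at least 5 sites, and leading genes of divisions made later; 1 gene that the rule names is not reported here. Scripts were tested on simulated data. In all, 12 other settings were listed at the outset and 2 were added later.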

Additional observations from a re-analysis of the deposited data

Results flagged for a closer look

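The share of sites that were antisense differed between cell types under the same contrast. In ESC the ΔZF1 share was 1.24 times the WT share, and in NPC it was 0.884 times. The opposite directions drew attention to it, and the difference was not tested, since each group has 1 list. Sites before own-strand starts moved with it: without them the NPC value was 1.06, and without sites in RefSeq genes of their own strand it was 1.03, while ESC had 1.25 and 1.27. With runs of sites within 8 nt merged, in antisense sites and the whole lists alike, the values were 1.28 in ESC and 1.01 in NPC. Under these 3 settings the intervals of the NPC shares overlap. The part of the clone and of depth was not tested.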

How the results depend on the processing

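Across 8 results and 14 alternatives, 2 of them added after seeing the data, 60 of 112 values moved by less than their counting interval and 52 by more. Of the count ratios 0 reversed, and for the percentages a reversal was not defined. The 8 results do not include the ΔZF1 share over the WT share. In NPC this share was 0.884 as given, 1.01 with runs merged, 1.06 without sites before an own-strand start and 1.03 without sites in own-strand RefSeq genes. Under the other 11 it was below 1, down to 0.719. In ESC it stayed above 1 under all 14, at 1.22 to 1.31. Taking genes that hold the site first keeps the same sites, so there the count ratios, uridine and the ΔZF1 share over WT could not move. Sites left out or merged were left out or merged in the whole list too where the setting applies to sense sites. No paired analysis was possible because each list pools its libraries, and for the same reason no fit leaves out a replicate. Values are antisense counts as WT over ΔZF1 or noXL, and percentages of the antisense sites on uridine or upstream.

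With scores at least the median of all 6 lists, WT over ΔZF1 was 1.42 in ESC and 1.54 in NPC, WT over noXL 2.21 and 1.2, uridine 39.9% with WT in ESC and 38.5% in NPC, and upstream 33.4% in ESC WT. With runs within 8 nt merged the same ratios were 1.38, 1.35, 2.00 and 1.25, uridine was 43.8% in ESC WT and upstream 42.6% in NPC WT. Without UV sites near a noXL site WT over noXL was 1.98 in ESC and 1.21 in NPC, uridine 45.6% and 43.6%, and upstream 27.5% in ESC WT. Upstream in ESC WT and NPC WT was 25.1% and 33.1% with a reach of 1 kb, 42.4% and 49.7% with 5 kb, and 28.5% and 36.5% with genes that hold the site taken first. With protein-coding genes alone it was 25.3% and 34.1%, with 43.7% uridine in ESC WT and a NPC WT over noXL of 1.49. Without repeat-masked bases upstream was 36.3% and 44.9% and NPC WT over noXL 1.46. Without sites past an own-strand end NPC WT over ΔZF1 was 1.89 and over noXL 1.44, with uridine at 39.0% and 35.5%. Without sites before an own-strand start these were 1.42, 1.38, 47.8% and 45.4%, and upstream was 19% and 30.0%. Without sites in own-strand RefSeq genes NPC WT over ΔZF1 was 1.46, WT over noXL 2.40 in ESC and 1.24 in NPC, uridine 43.3% in ESC WT, and upstream 22.0% and 33.4%. Without the 10 genes with most sites ESC WT over ΔZF1 was 1.50, uridine 38.1% and upstream 34.8% in ESC WT, and without chromosome 11 WT over ΔZF1 was 1.48 and 1.59. The cause of these moves was not tested beyond what each alternative leaves out.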
